A study of Mus musculus with 208 samples.

Results

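Hox cluster genes encode homeodomain transcription factors. They were taken as every row of the count table whose mouse symbol is Hox followed by a cluster letter (a, b, c or d) and a paralog number. The rule found 38 genes of 39179 in the table, with 11 in the Hoxa, 10 in the Hoxb, 9 in the Hoxc and 8 in the Hoxd cluster. A further symbol that fits the rule, Hoxd4, matched no row and was not analysed here. Of the 38 genes, 29 had a count in at least 1 of 208 striatal libraries. The other 9 (Hoxa10, Hoxa11, Hoxa13, Hoxb1, Hoxc11, Hoxc12, Hoxd9, Hoxd10 and Hoxd12) were at 0 in every library.

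Hox genes lie side by side in their clusters, in the order in which they are used along the head-to-tail axis of the embryo. Low paralog numbers (anterior genes) are used in the hindbrain, middle numbers (central genes) in the hindbrain and spinal cord, and high numbers (posterior genes) towards the tail. The proteins bind DNA with Pbx and Meis family partners and give neurons and other cells their position along that axis. In forebrain cells, which include those of the striatum, the clusters are known to be kept silent by Polycomb complexes, which place repressive marks on histones.

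The study measured polyA RNA from the striatum of C57BL/6 mice. Its 18 knock-in groups (144 libraries) are heterozygous for an Htt allele with a CAG repeat of the length in the line's name (Q20, Q80, Q92, Q111, Q140 or Q175), at 2, 6 or 10 months of age. Htt is the gene that carries an expanded repeat in Huntington's disease, and Q20 is a repeat of normal length. The 8 wild-type groups (64 libraries) were housed with Q20 mice at 2 and 10 months and with each of the 6 lines at 6 months. Each group has 8 libraries, usually 4 from females and 4 from males; Q20 at 10 months has 5 from females and Q80 at 2 months has 5 from males. Each repeat length is a separate line, so that repeat length and any other difference between lines cannot be told apart. The labels do not say that the libraries of a group come from separate litters or preparations, and p-values measure the spread between these libraries.

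Library totals ran from 29.1 M to 49.6 M counts, with a median of 35.7 M. At 2 months 5 libraries (2 of Q20, 1 of Q80 and 2 of Q92) had a median correlation under 0.97 with the others of their age. The tissue label was checked with 10 markers of medium spiny neurons, the main cell type of the striatum: all 10 were present, with summed levels of 5966 to 8376 CPM (counts scaled to library size) in the Q20 libraries at 10 months. Htt itself stood at 171 ± 9.87 CPM (SD, n = 8) in Q20 and 119 ± 15.7 in Q175 at 10 months; a knock-in keeps the transcript, so this level does not check the repeat. Against Q20, 9 of these 10 markers fell in Q175 at 6 and at 10 months. In bulk tissue, fewer cells of a type and less RNA per cell cannot be told apart, and the same holds for more cells and more RNA of a Hox gene.

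The promoters of 4 genes are shown because 3 of them (Hoxc4, Hoxa7 and Hoxd8) rose in the long-repeat lines while Hoxd1, the Hox gene with most counts in this striatum, changed less. The windows run from 250 bases before to 50 bases after the RefSeq start (GRCm38.p6): chr15:103034145-103034444 on the plus strand for Hoxc4, chr6:52218524-52218823 on the minus strand for Hoxa7, chr2:74704365-74704664 on the plus strand for Hoxd8 and chr2:74762730-74763029 on the plus strand for Hoxd1. Capitals mark CG dinucleotides.
Hoxc4: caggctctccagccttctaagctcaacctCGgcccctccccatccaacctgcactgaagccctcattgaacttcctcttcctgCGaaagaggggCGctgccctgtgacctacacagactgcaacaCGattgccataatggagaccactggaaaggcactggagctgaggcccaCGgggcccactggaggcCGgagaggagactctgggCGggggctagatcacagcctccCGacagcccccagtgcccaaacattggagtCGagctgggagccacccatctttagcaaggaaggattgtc
Hoxa7: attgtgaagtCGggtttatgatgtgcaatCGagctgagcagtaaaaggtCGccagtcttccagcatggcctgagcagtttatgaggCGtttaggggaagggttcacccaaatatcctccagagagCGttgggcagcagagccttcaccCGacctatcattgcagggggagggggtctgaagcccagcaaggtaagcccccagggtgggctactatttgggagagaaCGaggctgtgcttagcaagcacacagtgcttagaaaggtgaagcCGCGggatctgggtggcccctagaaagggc
Hoxd8: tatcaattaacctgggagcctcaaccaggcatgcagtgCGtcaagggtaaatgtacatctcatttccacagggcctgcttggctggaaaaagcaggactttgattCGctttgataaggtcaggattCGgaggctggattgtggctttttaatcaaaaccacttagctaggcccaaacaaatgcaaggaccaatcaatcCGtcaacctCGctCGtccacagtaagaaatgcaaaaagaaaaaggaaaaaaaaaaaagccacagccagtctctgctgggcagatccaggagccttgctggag
Hoxd1: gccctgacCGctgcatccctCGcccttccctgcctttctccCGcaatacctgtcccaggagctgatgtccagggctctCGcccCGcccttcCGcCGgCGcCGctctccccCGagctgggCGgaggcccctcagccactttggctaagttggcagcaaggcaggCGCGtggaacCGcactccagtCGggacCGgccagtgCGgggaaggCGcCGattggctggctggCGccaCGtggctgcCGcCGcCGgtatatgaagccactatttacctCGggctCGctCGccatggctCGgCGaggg

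The window of Hoxd1 holds 29 CG dinucleotides, more than 87.1% of all 32851 promoters in the RefSeq table. Hoxc4 and Hoxa7 hold 9 each and Hoxd8 holds 6, close to the median of 7 over all promoters. The 23 promoters of 21 Hox genes in that table had a median of 15 CG dinucleotides, from 4 to 45. TAAT, the core letters that homeodomains bind, was searched on both strands and was found in 82.6% of the Hox promoters and 58.0% of all promoters: 1 match for Hoxc4, 2 for Hoxd8 and none in the windows of Hoxa7 and Hoxd1. TGATNNAT, a Hox and Pbx pair motif, was found in 17.4% of the Hox promoters and 8.85% of all. AGGTCA, a nuclear receptor half-site that retinoic acid receptors bind, was found in 26.1% of the Hox promoters and 16.3% of all, with 1 match each for Hoxc4 and Hoxd8. These are matches of letters in 300 bases and show no binding.

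Hox transcripts were rare in this tissue. All Hox genes together gave 6462 counts over the 208 libraries, and a library held between 5 and 408 of them, with a median of 20. Among the highest by mean CPM over all libraries were Hoxd1 (1391 counts, with a count in 207 libraries), Hoxc4 (1302 counts in 98 libraries), Hoxa7 (760 counts in 195 libraries) and Hoxc5 (a count in 59 libraries). Hoxd1 is an anterior gene and Hoxa7 is a central gene of the Hoxa cluster. Both were seen in every group, although Hoxa7 had a count in only 3 of 8 Q92 libraries at 2 months, whereas Hoxc4 and Hoxc5 were concentrated in the long-repeat lines. Per length, the mean level over all libraries was 0.0970 FPKM for Hoxd1, 0.0909 for Hoxc4, 0.0620 for Hoxa7 and 0.0364 for Hoxc5. The map of summed counts shows the background of Hoxa7, Hoxb4 and Hoxd1 in all groups and the block of Hoxc genes in Q140 and Q175.

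**Figure D1:**
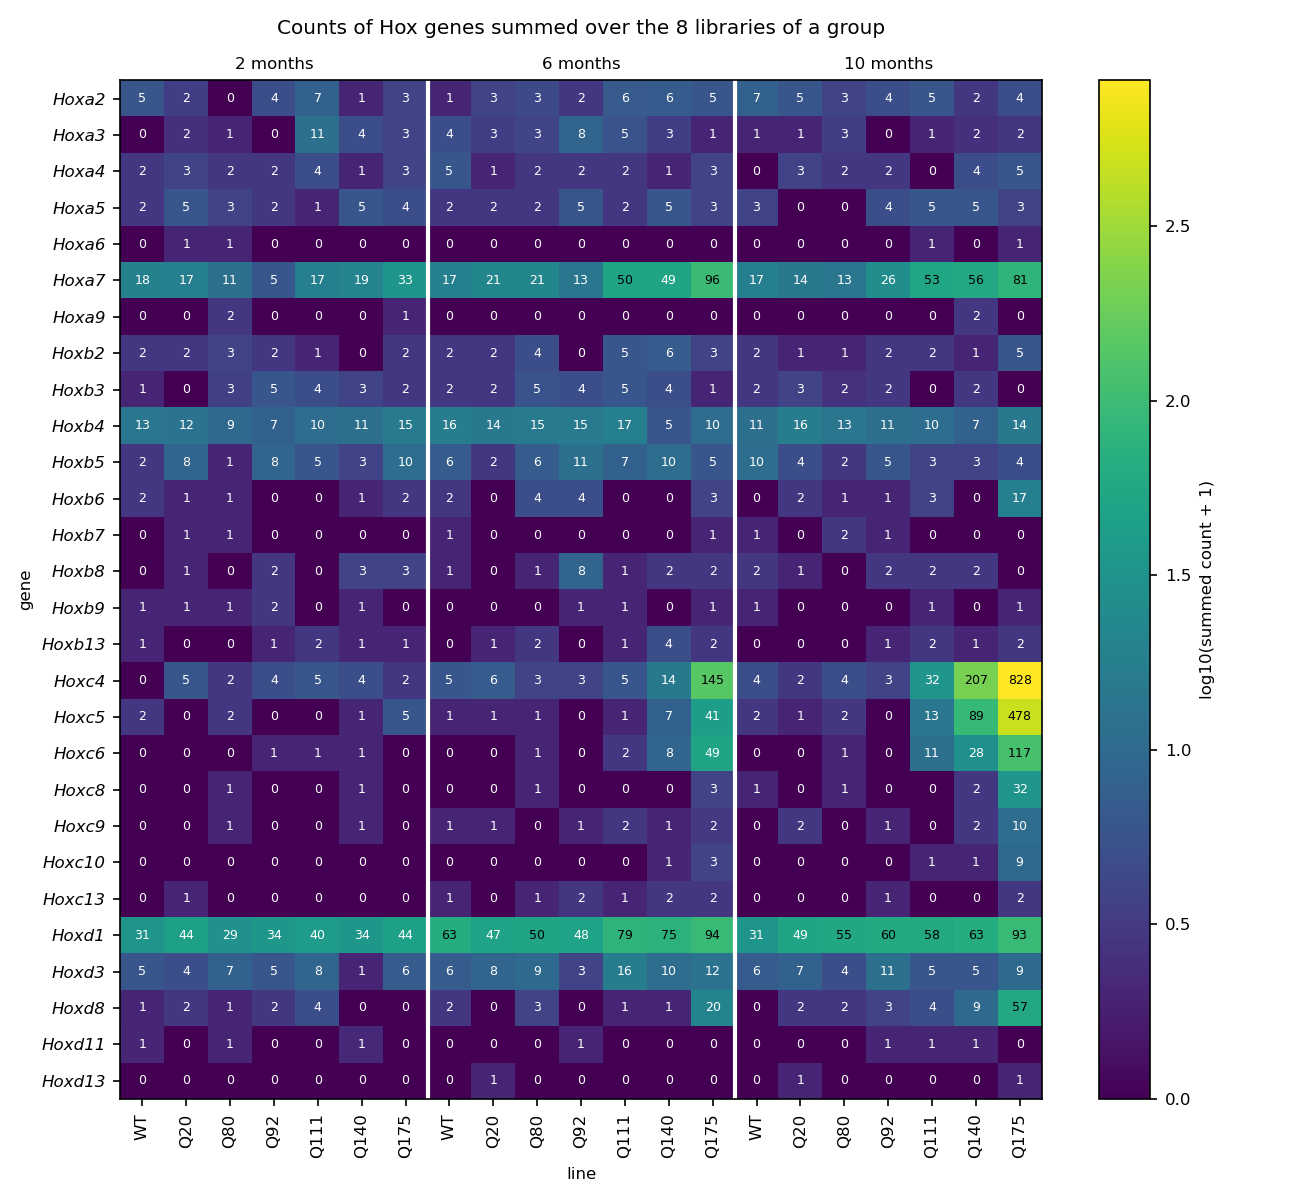
Counts of Hox genes with any count (rows) summed over the 8 libraries of each group (columns: wild type housed with Q20 and the 6 lines, at 2, 6 and 10 months); the colour is log10 of the summed count plus 1 and the number is the summed count. Hoxc4, Hoxc5 and Hoxc6 reach 828, 478 and 117 counts in Q175 at 10 months, against 2, 1 and 0 in Q20 of that age.

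The strongest differences between lines were in the Hoxc cluster at 10 months. Hoxc4, the most anterior gene of that cluster, was nearly absent from Q20 and wild-type striatum and rose in Q111, Q140 and Q175. In Q175 at 10 months the 4 female libraries held 135, 79, 134 and 200 counts of Hoxc4 and the 4 male libraries 88, 68, 67 and 57. Q140 libraries held 16 to 44 counts (median 21.5) and Q111 libraries 1 to 10 (median 2.5). Of the 8 Q20 libraries 7 were at 0 and 1 held 2 counts, and wild-type libraries held 0 or 1. Every Q175 and every Q140 library was therefore above every Q20 library, while the Q111 libraries overlapped with them. In CPM, Hoxc4 averaged 3.02 ± 1.58 (SD, n = 8) in Q175, 0.777 ± 0.325 in Q140 and 0.00815 ± 0.0230 in Q20.

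Scaled to library size, Hoxc4 counts were 384 times those of Q20 in Q175 (95% counting interval 106 to 3179), 100 times in Q140 (27.3 to 831) and 14.6 times in Q111 (3.73 to 126). Such intervals cover counting error only, and they are wide because Q20 held 2 counts. Log2 differences with their standard errors (SE) and adjusted p-values come from edgeR's quasi-likelihood test fitted on all genes, with Benjamini-Hochberg adjustment, and a gene is said to rise or fall where its adjusted p is under 0.05. For Hoxc4 the log2 difference from Q20 was 8.10 (SE 0.43, adjusted p = 1.56e-21) in Q175, 6.20 (SE 0.50, adjusted p = 1.02e-14) in Q140 and 3.46 (SE 0.70, adjusted p = 2.43e-04) in Q111. With a reference this close to 0 these fitted values depend on the small count that the fit adds. Against wild type in place of Q20 the Hoxc4 difference in Q175 was 7.24 (adjusted p = 5.01e-21), and the count ratio was 188 (73.1 to 691). The 3 lines share the Q20 libraries as their reference, so their differences are not independent of each other.

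Hoxc5, the next gene of the cluster, followed the same order of lines. The Q175 libraries at 10 months held 33 to 108 counts of Hoxc5 (median 46.5), the Q140 libraries 5 to 19 (median 11) and the Q111 libraries 0 to 4 (median 1). In Q20 only 1 library held a count, so that Q175 and Q140 again lay wholly above Q20. The log2 difference of Hoxc5 from Q20 was 7.94 (SE 0.44, adjusted p = 2.09e-19) in Q175, 5.57 (SE 0.55, adjusted p = 5.03e-11) in Q140 and 2.80 (SE 0.79, adjusted p = 0.0114) in Q111, all from edgeR's quasi-likelihood test. The count ratios were 444 (79.3 to 17564), 86.0 (15 to 3435) and 11.9 (1.79 to 505).

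A filter on low counts kept 3 Hox genes at 10 months (Hoxc4, Hoxc5 and Hoxd1), and the first 2 of these passed it only through the lines in which they were high. All 3 rose in Q175, where 12.4% of all genes tested rose. In Q140 and in Q111 Hoxc4 and Hoxc5 rose, beside 10.9% and 5.58% of all genes. The remaining members were tested in a fit with no filter, in which 8 of 29 Hox genes rose in Q175 (6.38% of all genes rose), 4 of 29 in Q140 (5.94%) and 4 of 29 in Q111 (2.91%). No Hox gene fell in any of these tests; between 6 and 11 members of the 29 had an unadjusted p under 0.05 in each. Every Q175 library exceeded every Q20 library for 4 members at 10 months (Hoxc4, Hoxc5, Hoxc6 and Hoxd8), beside 1.2% of all genes with a count, and for 2 in Q140 (Hoxc4 and Hoxc5; 0.993%).

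Further along the Hoxc cluster the counts became smaller. Hoxc6, a central gene used in the thoracic body region of the embryo, was at 0 in all 8 Q20 and all 8 wild-type libraries at 10 months. In Q175 the libraries held 4 to 24 counts of Hoxc6 (median 16), all of them above 0. That made Hoxc6 at least 36.2-fold higher than Q20, taking 3 counts over the group as the floor. In Q140 the libraries held 0 to 6 counts (at least 9.02-fold higher) and in Q111 3 of 8 libraries held 2 to 5 (at least 3.35-fold higher). Hoxc6 passed the test without the filter in all of these lines: the adjusted p was 8.07e-08 in Q175, 3.69e-04 in Q140 and 0.0360 in Q111.

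Hoxc8 was seen in 7 of 8 Q175 libraries, with 6, 3, 9 and 10 counts in females and 2, 1, 0 and 1 in males, and in no Q20 library. It was at least 9.90-fold higher than in Q20 (adjusted p = 5.58e-06 in the fit without the filter). Hoxc10, a posterior gene, had 9 counts in 6 of 8 Q175 libraries and 0 in Q20, at least 2.79-fold higher (adjusted p = 0.00646). Hoxc9 had 10.0 counts in 5 Q175 libraries and 2 in Q20, a ratio of 4.64 (0.989 to 43.6) that did not pass the test (adjusted p = 0.135). Hoxc13 had 2 counts and Hoxc11 and Hoxc12 had none. Hoxc9 passed the same test against wild type, a group in which it was at 0 and against which 10 of 29 members rose, beside 6.72% of all genes.

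Measured per length, so that genes can be compared, the Hoxc cluster in Q175 at 10 months declined from its anterior to its posterior end. Hoxc4 stood at 1.55 ± 0.789 FPKM (SD, n = 8), Hoxc5 at 0.659 ± 0.343, Hoxc6 at 0.281 ± 0.138 and Hoxc8 at 0.0522 ± 0.0512. Hoxc9 at 0.0165 ± 0.0226 and Hoxc10 at 0.0175 ± 0.0131 did not differ beyond their spread. In the mouse annotation the span of Hoxc5 overlaps those of Hoxc6, Hoxc8, Hoxc9 and Hoxc10 on the same strand, so reads could be shared among these 5 genes; no other gene overlaps Hoxc4. How shared reads were divided is not given in the sources used here.

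**Figure D2:**
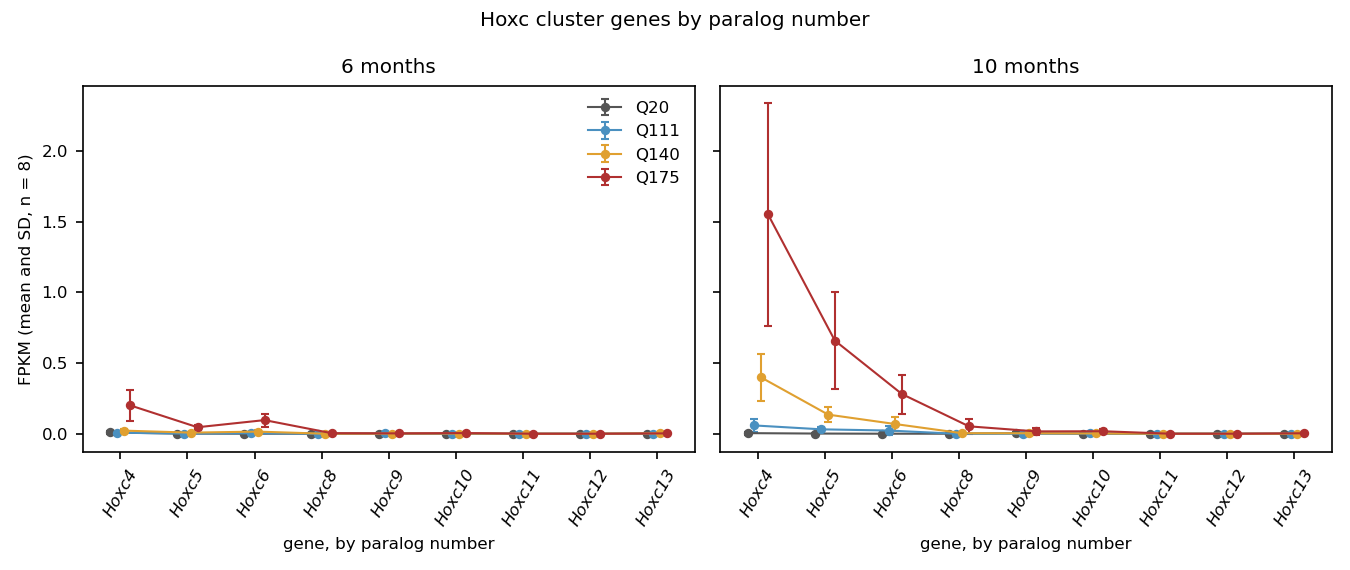
Level of each Hoxc gene in FPKM (points are means and bars the SD of 8 libraries), ordered by paralog number, at 6 months (left) and 10 months (right) in Q20, Q111, Q140 and Q175. At 10 months Q175 declines from 1.55 FPKM at Hoxc4 to 0.0522 at Hoxc8, and Q20 lies near 0 at every gene.

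Outside the Hoxc cluster 3 central genes rose in Q175 at 10 months. Hoxd8, a central gene of the Hoxd cluster, had 2 counts in Q20 and 3 to 14 in each Q175 library (median 6.5; 57 in all). The Q175 libraries did not overlap with Q20, and the ratio was 26.5 (7.0 to 224; adjusted p = 2.75e-06 without the filter). In Q140 Hoxd8 had 9 counts, a ratio of 4.35 (0.900 to 41.4). Hoxb6 had 17 counts in 7 Q175 libraries and 2 in Q20, a ratio of 7.89 (1.87 to 70.4; adjusted p = 0.00530), but none in Q140.

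Hoxa7 differed from these in that it was present in all groups. Its Q20 libraries held 0 to 5 counts at 10 months (median 1) and wild-type libraries 0 to 5 (median 1.5). The Q111 libraries held 1 to 10 (median 7.5), the Q140 libraries 4 to 16 (median 5.5) and the Q175 libraries 2 to 26 (median 9.5). The 3 lines overlapped with each other over most of their range, and each had libraries within the range of Q20. Without the filter Hoxa7 rose by 1.76 on the log2 scale in Q111 (SE 0.47, adjusted p = 0.00991), by 1.98 in Q140 (SE 0.47, adjusted p = 0.00169) and by 2.39 in Q175 (SE 0.45, adjusted p = 5.68e-05). The count ratios were 3.46 (1.89 to 6.76), 3.87 (2.12 to 7.52) and 5.37 (3.02 to 10.3). The edgeR differences of these lines from one another were not tested. Overlapping transcripts on the opposite strand exist for Hoxa7 (Hoxaas3), Hoxd8 (Hoxd3os1) and Hoxb6 (Hoxb5os), and the use of strand in counting is not given in the sources used here.

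Hoxd1, the most anterior gene of its cluster, changed least among the members that passed. At 10 months its libraries held 1 to 11 counts in Q20 (median 6), 2 to 7 in wild type (median 3.5), 5 to 11 in Q140 (median 7.5) and 7 to 18 in Q175 (median 11). The ranges of Q20 and Q175 overlapped. The log2 difference of Hoxd1 in Q175 was 0.79 against Q20 (SE 0.29, adjusted p = 0.0339) and 1.41 against wild type (SE 0.31, adjusted p = 3.37e-04), where 12.5% of all genes rose. Against Q20 it missed the threshold without the filter (adjusted p = 0.067) and in 3 other alternatives. In Q140 and Q111 the differences from Q20 were 0.31 (adjusted p = 0.503) and 0.11 (adjusted p = 0.887).

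Hoxb4, a central gene, had 16 counts in Q20 and 14 in Q175 at 10 months, and Hoxd3, an anterior gene, had 7 and 9. A further 15 members with a count had at most 5 counts in Q20 and at most 5 in Q175 at 10 months, too few to show a difference at this depth. Summed by cluster at 10 months, Hoxc counts went from 5 in Q20 to 57 in Q111, 329 in Q140 and 1476 in Q175. Hoxa counts were 46, 87, 97.5 and 142, and Hoxd counts 59, 68, 78 and 160. Hoxb counts were 27, 23, 16 and 43. The Hoxc cluster held 3.65% of all Hox counts in Q20 and 81.1% in Q175, and without it the Hox total was 132 in Q20 and 345 in Q175. By position, the central genes (paralogs 4 to 8) had 45 counts in Q20 and 1637 in Q175, the anterior genes (1 to 3) 89 and 159, and the posterior genes (9 to 13) 3 and 25. These sums are descriptions without a test.

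**Figure D3:**
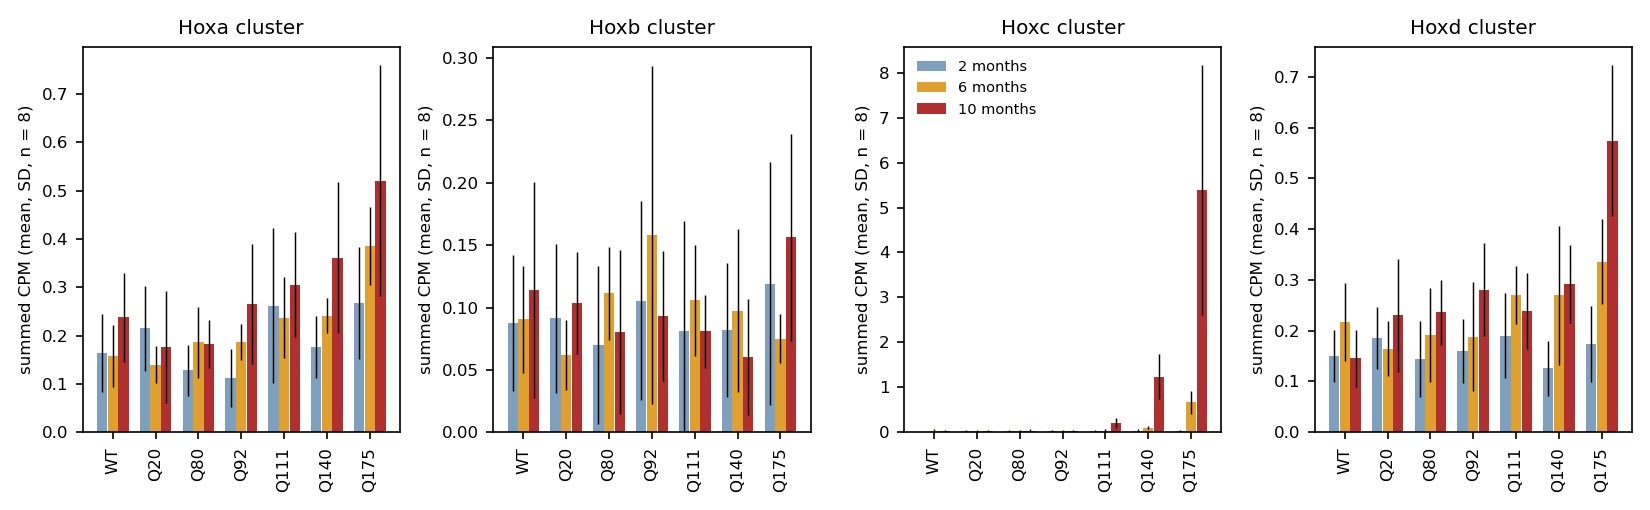
Summed CPM of the genes of each cluster (bars are means and lines the SD of 8 libraries) in wild type housed with Q20 and in the 6 lines at 2, 6 and 10 months; each panel has its own scale. The Hoxc cluster reaches 5.38 CPM in Q175 at 10 months, against 0.0199 in Q20 of that age.

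At 6 months the same genes were detected in Q175 at lower levels. Hoxc4 had 4 to 37 counts in the Q175 libraries (median 18; 145 in all) and 0 to 2 in the Q20 libraries (6 in all). Hoxc5 had 2 to 7 in Q175 and a single count in Q20, and Hoxc6 had 2 to 9 in Q175 and none in Q20. Hoxd8 had 1 to 7 in Q175 and none in Q20. For these 4 genes every Q175 library was above every Q20 library, beside 2.75% of all genes with a count. Hoxa7 overlapped only at the edge, with 6 to 19 counts in Q175 (median 12.5) and 1 to 7 in Q20 (median 2).

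Relative to Q20 at 6 months, Q175 held 22.1 times the Hoxc4 counts (9.90 to 61.1), 37.4 times the Hoxc5 counts (6.35 to 1514) and 4.17 times the Hoxa7 counts (2.58 to 7.05). Hoxc6 was at least 14.9-fold and Hoxd8 at least 6.09-fold higher. The filter kept only Hoxd1 at this age, which rose by 0.85 on the log2 scale (SE 0.30, adjusted p = 0.0177) beside 18% of all genes tested. Hoxd1 had 5 to 18 counts in Q175 and 4 to 8 in Q20, and against wild type its adjusted p was 0.0560, beside 15.7% of all genes that rose. Without the filter 6 of 29 members rose (10.4% of all genes did): Hoxc4 (adjusted p = 3.95e-10), Hoxc5 (8.09e-08), Hoxc6 (2.55e-09), Hoxd8 (2.49e-05), Hoxa7 (8.54e-06) and Hoxd1 (0.0298). Per length, Hoxc6 (0.0963 ± 0.0456 FPKM) stood above Hoxc5 (0.0458) at 6 months, the reverse of their order at 10 months.

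In Q140 at 6 months, Hoxc4 had 0 to 3 counts per library (14 in all), a ratio to Q20 of 2.45 (0.886 to 7.79). Hoxc6 had 8 counts and was at least 2.80-fold higher, and Hoxa7 had 49 counts, a ratio of 2.45 (1.44 to 4.31). The filter kept Hoxd1 alone, which did not pass (log2 0.74, adjusted p = 0.0590), beside 13.8% of all genes that rose. Without the filter Hoxc6 (adjusted p = 0.00706) and Hoxa7 (adjusted p = 0.0171) rose, 2 of 29 members beside 7.91% of all genes. In Q111 at 6 months no member passed edgeR's test in either fit, where 5.37% (with the filter) and 2.66% (without) of all genes rose. Without the filter 2 of 29 members had an unadjusted p under 0.05. DESeq2, run on the filtered genes, tested only Hoxd1 and did not call it. Its Hoxa7 libraries held 1 to 12 counts (ratio 2.29, 1.35 to 4.01) and its Hoxd1 libraries 6 to 14 (ratio 1.61, 1.11 to 2.37).

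**Figure D4:**
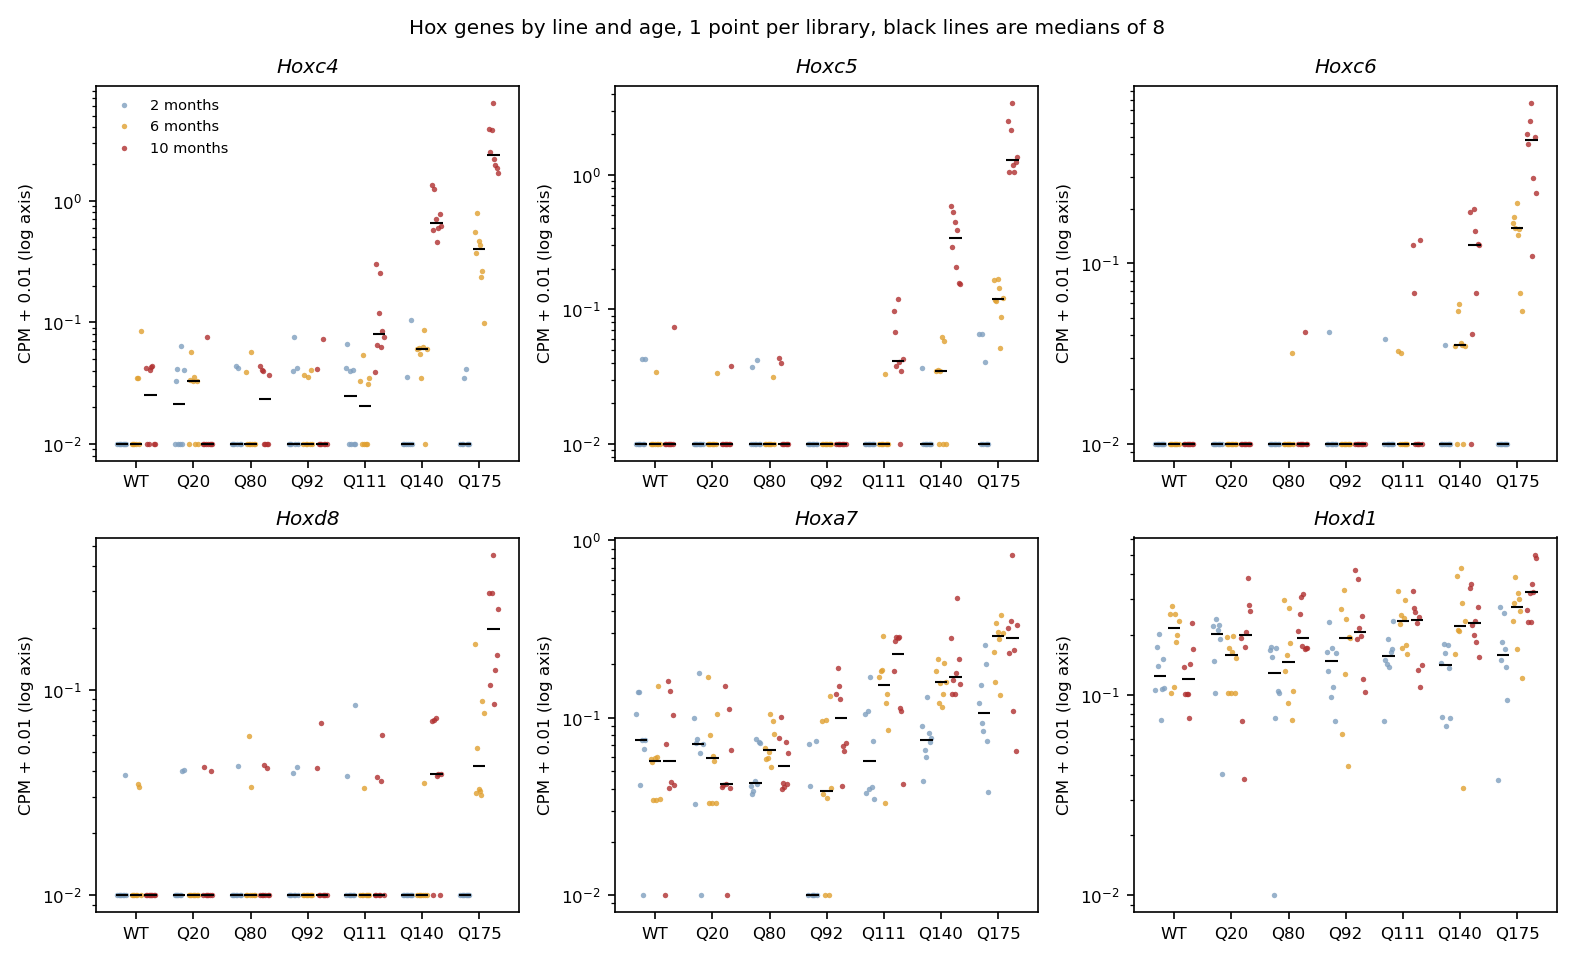
CPM plus 0.01 (log axis) of Hoxc4, Hoxc5, Hoxc6, Hoxd8, Hoxa7 and Hoxd1 in wild type housed with Q20 and in each line, with 1 point per library, coloured by age, and black lines at the medians of 8 libraries. Points at the bottom of the Hoxc panels are libraries with no count. At 10 months the Hoxc4 points of Q175 lie above those of Q140, and the Hoxd1 ranges of Q20 and Q175 overlap.

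At 2 months no Hox gene passed the test. The filter kept no member at this age. Without it, 0 of 27 members passed edgeR's quasi-likelihood test in Q175, Q140 or Q111 against Q20, with 1, 1 and 2 members at an unadjusted p under 0.05; of all genes 0.0108%, 0% and 0.00359% rose. DESeq2, run on the filtered genes, had no member to test. Q175 held 2 counts of Hoxc4, 5 of Hoxc5 and none of Hoxc6, Hoxc8 or Hoxd8, and Q20 held 5 of Hoxc4 and none of Hoxc5. Hoxa7 had 33 counts in Q175 and 17 in Q20, and Hoxd1 had 44 in both. Small differences in genes with so few counts could not be detected at this depth. Library totals were similar at 2 months (29.3 M to 43.0 M) and at 6 months (29.1 M to 49.6 M), where Q175 held 145 counts of Hoxc4.

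Wild type, Q20, Q80 and Q92 showed the base level at which these genes are read in this tissue. Over the 136 libraries of those groups at all ages, Hoxc4 had 60 counts, with at most 3 in a library, and Hoxc5 had 19, with at most 2. Hoxc6 had 8 counts, never more than 1 per library, Hoxc8 had 4 and Hoxd8 had 27. In the same libraries Hoxa7 had 306 counts and Hoxd1 811, and they were present in 123 and 135 of the 136. The 6 wild-type groups at 6 months held 2 to 6 counts of Hoxc4 and 44 to 67 of Hoxd1 each. At 10 months Hoxc4 had 4 counts in Q80 and 3 in Q92. Without the filter, 0 of 29 Hox genes passed edgeR's quasi-likelihood test in Q80 or Q92 against Q20 or in Q20 against wild type at 6 or 10 months, and at most 3 had an unadjusted p under 0.05 in any of these tests. DESeq2, run on the filtered genes, called none of the 1 member it tested at 6 months or of the 3 at 10 months. Of all genes 0.125% rose in Q80 and 1.03% in Q92 at 6 months, 0.00351% and 0.123% at 10 months, and 0.0105% and 0.00703% in Q20 against wild type at those ages.

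Repeat length was then used as a number across the 6 lines, per 10 repeats. At 10 months Hoxc4 rose by 0.72 on the log2 scale per 10 repeats (SE 0.029, adjusted p = 5.07e-26) and Hoxc5 by 0.76 (SE 0.027, adjusted p = 2.59e-28). Hoxd1 rose by 0.05 (SE 0.018, adjusted p = 0.0299). These were all 3 members kept by the filter, beside 15.9% of all genes that rose. Hoxc4 and Hoxc5 passed the filter only through the lines in which they were high, so 3 of 3 cannot be read against that share. Without the filter 10 of 29 members rose (9.78% of all genes): Hoxc4, Hoxc5 and Hoxd1 with Hoxa7, Hoxb6, Hoxc6, Hoxc8, Hoxc9, Hoxc10 and Hoxd8. At 6 months Hoxd1 rose by 0.06 (SE 0.019, adjusted p = 0.00777) beside 20.3% of all genes, and 7 of 27 members rose without the filter (12.4%). At 2 months none of 27 passed (2 had an unadjusted p under 0.05), beside 0.0145% of all genes. This test treats libraries as independent although repeat length differs only between 6 lines. The counts did not rise evenly with the number: Hoxc4 at 10 months had 4 counts in Q80, 3 in Q92, 32 in Q111, 207 in Q140 and 828 in Q175. Without Q175 only Hoxc4 passed at 10 months and no member at 6 months. The filter did not keep Hoxc5 in that 10-month fit, so Hoxc5 was not tested there. It passed in all 10 alternatives that held it.

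From 6 to 10 months within Q175, Hoxc4 counts scaled to library size went up 7.63 times (6.39 to 9.17), Hoxc5 15.6 times (11.3 to 22) and Hoxc6 3.19 times (2.27 to 4.55). For Hoxc4 and Hoxc5 every library at 10 months was above every library at 6 months. Hoxa7 at 1.13 (0.828 to 1.53) and Hoxd1 at 1.32 (0.982 to 1.78) had intervals that include no difference. In Q140 the same ratio was 17.9 for Hoxc4 (10.4 to 33.2) and 15.4 for Hoxc5 (7.15 to 39.3). The scaling was set within each age, and age and anything else that differed between the age sets cannot be told apart.

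The change of the Q175 effect with age was tested with Q20 of the same age as reference. Between 2 and 6 months it grew for Hoxc4 by 5.28 on the log2 scale (SE 1.26, adjusted p = 0.00211), the only 1 of 4 members tested, beside 3.45% of all genes. Hoxc4 passed the filter only through groups in which it was high. Without the filter the Q175 effect also grew for Hoxd8 (5.78, SE 1.40, adjusted p = 0.0137), making 2 members beside 3.52% of all genes in either direction. Both genes were at or near 0 in some of the groups compared, so these fitted sizes depend on the small count that the fit adds. Between 6 and 10 months the Q175 effect grew for Hoxc4 by 3.88 (SE 1.10, unadjusted p = 5.47e-04), which missed the threshold (adjusted p = 0.306). Only 0.0112% of all genes passed there.

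Within Q175 at 10 months the females lay higher for Hoxc4. Its counts were 79 to 200 in females and 57 to 88 in males, ranges that overlapped before scaling to library size. Scaled, Hoxc4 stood at 4.12 ± 1.60 CPM in females and 1.91 ± 0.217 CPM in males (SD, n = 4 each), without overlap. A comparison of males with females within this group, chosen after the values were seen, gave a log2 difference of -1.10 for Hoxc4 (SE 0.30, unadjusted p = 6.42e-04, adjusted p = 0.256) and -0.93 for Hoxc5 (SE 0.30, adjusted p = 0.534). Neither passed edgeR's quasi-likelihood test with Benjamini-Hochberg adjustment, in which 0.0815% of all genes differed in either direction. Hoxd1 was placed the other way, with 7 to 11 counts in females and 11 to 18 in males (adjusted p = 0.798). The Q175 effect itself was not shown to differ between the sexes for Hoxc4 at 10 months (difference 1.01, SE 1.13, adjusted p = 0.971), and 0 of 3 members had an unadjusted p under 0.05, beside 0% of all genes that passed.

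Markers of the hindbrain and spinal cord, where Hox genes are normally used, were read beside the Hoxc result. Their 12 genes summed to 1.99 to 2.86 CPM in the Q20 libraries at 10 months and 3.36 to 5.73 in the Q175 libraries, with no overlap. That gap lay mostly in Lmx1b, a homeodomain gene of serotonin neurons: it stood at 0.0326 to 0.488 CPM in Q20 and 1.36 to 2.53 in Q175, and rose by 2.94 on the log2 scale (SE 0.36, adjusted p = 3.53e-09). The other 11 markers summed to 1.85 to 2.54 CPM in Q20 (median 2.11) and 1.99 to 3.20 in Q175 (median 2.42), which overlap. Of the 5 markers tested in Q175 at 10 months Lmx1b was the only one that rose. In Q140 at 10 months the marker sum was 2.73 to 5.0 CPM, and Lmx1b rose there as well (log2 1.23, adjusted p = 0.0174), while Slc6a5, the glycine transporter of hindbrain and spinal cord neurons, did not pass (log2 0.92, unadjusted p = 0.0171, adjusted p = 0.0681). Without Lmx1b the Q140 sum was 2.34 to 4.09 CPM (median 2.53), beside 1.85 to 2.54 (median 2.11) in Q20. These ranges overlapped only in part, with Q140 placed higher, and the sums were not tested. The defining hindbrain gene Tlx3 had 4 counts in all Q175 libraries together and 5 in Q20, and Lbx1, a spinal cord gene, had 14 and 0. At 6 months the marker sum was 1.97 to 5.29 CPM in Q20 and 2.34 to 3.26 in Q175; Lmx1b did not pass (log2 0.22, adjusted p = 0.772) and Tph2, the enzyme of serotonin synthesis, fell by 0.64 (adjusted p = 0.0441). The part of hindbrain or spinal cord tissue in the Hox result was not tested. With hindbrain, thalamic and choroid plexus scores as covariates, an alternative chosen after seeing the data, the same 8 members rose in Q175 at 10 months, beside 12% of all genes that changed in either direction. The hindbrain score there rests on the 5 markers kept by the filter. Lmx1b, which itself rose with the line, is 1 of them, so this fit cannot separate tissue from line. The same 8 also rose without the library with most Hox counts in each of Q20, Q111, Q140 and Q175, another added alternative (11.3%).

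Other cell type markers in Q175 against Q20 moved as follows. None of 8 cortical and none of 8 choroid plexus markers passed edgeR's test at 6 or 10 months, and 0 had an unadjusted p under 0.05; in Q140 at 10 months 5 choroid plexus markers rose. At 10 months the choroid plexus sum was 26.6 to 153 CPM in Q20 and 26 to 116 in Q175, and the thalamic sum 90.8 to 462.9 and 140 to 672. Of 7 thalamic markers Calb2 rose at 6 months and none at 10. Of 7 hypothalamic and pituitary genes Gh and Prl fell at 6 months and Avp at 10. Of 7 meningeal genes 2 fell at 10 months, of 9 blood and myeloid genes Ptprc rose at 10 months, and of 7 endothelial and mural genes 5 fell at 6 months and 3 at 10. The part of these cell types in the Hox result was not tested. Medium spiny neuron markers summed to 8883 to 10544 CPM in Q20 and 4682 to 5435 in Q175 at 6 months, and their part in the result was not tested.

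The partners of Hox proteins are far more abundant than Hox transcripts here, and most of their changes were small. Of 9 cofactor genes tested in Q175 against Q20, 1 rose (Meis1) and 4 fell (Pbx2, Pknox1 and Meis2 among them) at 6 months, and the same genes at 10 months, beside 18% and 12.4% of all genes that rose and 18.2% and 12.1% that fell. Meis1 differed by 0.23 at 6 and 0.21 at 10 months on the log2 scale. Meis2, which marks striatal neurons, fell by 0.34 at the younger (adjusted p = 3.22e-07) and by 0.26 at the older of these ages (adjusted p = 0.00239). The median of the list was -0.09 at both ages, beside 0.01 for all genes.

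Among 34 tested regulators of Hox clusters (Polycomb and trithorax subunits, histone demethylases and retinoic acid genes; the 3 listed Cdx genes did not pass the filter on low counts), 6 rose and 9 fell in Q175 at 6 months, and 7 rose and 3 fell at 10 months. Of all genes 18% rose and 18.2% fell at 6 months, and 12.4% rose and 12.1% fell at 10 months. The list's median was 0.00 and 0.01, as for all genes. Cbx8, a chromodomain subunit of a Polycomb complex, rose by 0.88 (SE 0.071, adjusted p = 1.21e-14) at 10 months. The Polycomb subunits Bmi1 (0.25) and Eed (0.18) also rose in Q175 at 10 months. Ring1, another Polycomb subunit, fell by 0.15 there (adjusted p = 0.0215 by edgeR's test). Ezh2, a methyltransferase of that system, fell by 0.17 in Q175 (adjusted p = 0.0490) but missed the threshold of edgeR's test in Q140 (adjusted p = 0.0531). Ezh1, another methyltransferase of that system, did not pass edgeR's test in Q175 at 10 months (-0.06, adjusted p = 0.217). In Q140 at that age Ezh1 fell by 0.09 (adjusted p = 0.0423). Rarb, a retinoic acid receptor, fell at 6 months (by 0.50) and at 10 months (by 0.35).

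The genes that flank the clusters were compared with the members inside them. Of 17 flanking genes tested in Q175, 6 rose and 4 fell at 6 months and 5 rose and 1 fell at 10 months, with medians of 0.05 and 0.07. The shares of all genes were those given for the regulators. Next to the Hoxc cluster, Calcoco1 fell at both ages, by 0.29 and then by 0.18, and Smug1 rose by 0.15 at 10 months (adjusted p = 0.0296). The largest rises were Skap1 beside the Hoxb cluster (0.56 at 10 months) and Skap2 beside the Hoxa cluster (0.25), so that no tested flanking gene changed by as much as Hoxc4. Of 16 noncoding genes of the clusters in the table the filter kept none. Hotairm1, a noncoding RNA of the Hoxa cluster, had 28 counts in Q20 (1 to 6 per library) and 63 in Q175 (4 to 12) at 10 months. It rose by 1.03 on the log2 scale without the filter (SE 0.33, adjusted p = 0.0243). Hotair, from the Hoxc cluster, and Hottip were at 0 in both groups.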

How the data were processed

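PolyA RNA of striatum was sequenced in 208 libraries of 26 groups. The authors deposited expected counts per gene, estimates that need not be whole, and FPKM per gene (a level per gene length and per library size); their processing used CASAVA 1.8.2 per the submitters' processing notes, while an aligner, a counter, a strand setting or a genome build is not given in the sources used here. Of 39179 gene identifiers 37607 (96.0%) were paired with a symbol. The deposited expected counts were rounded to whole numbers for the tests; sums and CPM use them as deposited.

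Each age was fitted separately with edgeR 4.0.16 (R 4.3.3; quasi-likelihood test, robust, TMM factors), with 1 term per group and sex, on genes kept by filterByExpr (minimum count 10, minimum total 15), and Benjamini-Hochberg adjustment over all genes tested at 0.05. The trend fit had repeat length and sex as terms in the 6 lines of an age. Interactions with age were fitted on all ages together. Most Hox genes fall under the filter, so a planned fit with no filter was read beside it. CPM and ratios use library totals multiplied by TMM factors set within each age; ratios have exact 95% intervals (conditional Clopper-Pearson); where a reference was at 0 a floor of 3 counts over the group was used. Means ± SD are over 8 libraries. Alternatives were DESeq2 1.42.0 and its size factors, limma 3.58.1 on log2(FPKM + 1) for genes of at least 0.1 FPKM in 8 libraries, other references, covariates and sample subsets. The scripts were tested on simulated data. Overlaps of genes were read from GENCODE M21 and promoters from RefSeq. Python 3.11.15, numpy 2.4.6, pandas 2.3.3, scipy 1.17.1 and matplotlib 3.10.9 were used.

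Values are given in full for members past the threshold in any test and for the 5 with the highest mean CPM; other members are given by counts, and a few genes are not reported here. The members, the lists (cofactors, regulators, flanking genes, noncoding RNAs, cell type markers) and the tests were chosen with earlier results of these data known.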

Additional observations from a re-analysis of the deposited data

Results flagged for a closer look

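In 37 sets of 8 libraries of 1 gene with at least 40 counts, 3 had a highest library whose gap to the next, as a share of the whole range, exceeded Dixon's critical value at 95%; chance alone gives about 1 in 20. For Hoxc4 in Q175 at 10 months, female library 4 stood at 6.33 CPM (200 counts) and the next at 3.84. For Hoxa7 the same library stood at 0.823 CPM (26 counts), the next at 0.342. For Hoxa7 in Q140 at 10 months, male library 2 stood at 0.464 CPM (16 counts), the next at 0.273. Without the library with the most Hox counts in each of Q20, Q111, Q140 and Q175, the same 8 members rose in Q175 at 10 months.

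The Q175 effect differed between 2 and 6 months by edgeR's quasi-likelihood test of the difference: by 5.28 on the log2 scale for Hoxc4, with the filter (SE 1.26, adjusted p = 0.00211) and without it (5.28, SE 1.23, adjusted p = 0.00281), and by 5.78 for Hoxd8 without the filter (SE 1.40, adjusted p = 0.0137). At 2 months the Q175 libraries held 2 counts of Hoxc4 and none of Hoxd8. Hoxc4 was also near 0 in Q20 at both ages, and Hoxd8 was absent from Q20 at 6 months. With groups this close to 0 the fitted sizes depend on the small count that the fit adds.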

How the results depend on the processing

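Counts of Hox genes that rose depended mainly on the filter, since few members pass it. For Q175 against Q20 at 6 months (1 member) the count was 0 against wild type, 6 without the filter, 2 with limma on FPKM and 0 with only the 2 groups in the fit; without the filter it was 5 without the top Hox libraries and 5 with the tissue scores (both chosen after seeing the data). For Q140 at 6 months (0) it was 2 without the filter, 1 with limma, 1 with the replicate block, 1 with the tissue scores, and 2 in each of the 2 added fits. For Q175 at 10 months (3) it was 8 without the filter, 5 with limma, and 8 in each added fit; for Q140 at 10 months (2) it was 4, 1 with only 2 groups, and 4 in each added fit. The trend gave 1 member at 6 months, but 7 without the filter, 2 with limma and 0 without Q20 or without Q175; at 10 months it gave 3, but 10 without the filter, 5 with limma and 1 without Q175. Other line tests gave 2 with and 10 without the filter; the change of the Q175 effect with age or sex gave 1 and 2. The construction of these fits (more or fewer genes or libraries) differs; the cause was not tested further. In all, 82 of 111 alternatives kept the count within 1.5 times or, for the summed Hox level, stayed within 1 SD. Some of these were alike only in being 0, as at 2 months, where the filter kept no member. A count has no direction to reverse. For single genes that passed, no alternative changed the sign of the difference.

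For Hoxc4 in Q175 at 10 months the log2 difference ran from 7.24 to 8.33 over 12 alternatives, and for Hoxc5 from 7.23 to 8.89, all past the threshold. Hoxd1 missed it in 4 of 11 alternatives in Q175 at 10 months (adjusted p 3.37e-04 to 0.0903) and in 3 of 11 at 6 months (0.0101 to 0.0676). Hoxa7 missed it with limma on FPKM in Q140 (0.243 at 6 and 0.0667 at 10 months). Libraries with the same replicate number in different groups correlated little (median 0.107 to 0.135 by age). Those with other numbers correlated less (median -0.0326 to 0.0311). The replicate label includes sex, which this check did not remove, so it cannot tell whether the numbers pair libraries. With the replicate block Hoxc4, Hoxc5 and Hoxd1 still rose in Q175 at 10 months (3 members). Low counts limit every statement on the posterior genes. Over the Q175 libraries at 10 months Hoxc9 had 10.0 counts and Hoxc10 had 9.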
